A study of Mus musculus with 25 samples.

Results

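The C1ql, Lgi and Lrtm genes encode 3 small families of secreted or membrane proteins known from neurons. Their 10 mouse members (C1ql1 to C1ql4, Lgi1 to Lgi4, Lrtm1 and Lrtm2) were looked up by symbol among 18820 named genes, and 9 of them had a transcript cluster of their own, a transcript cluster being the group of probes that the array assigns to one gene. C1ql3 was covered only by 2 clusters that it shares with Pter, a neighbour whose annotated span overlaps its own, and no value is given for it. The families were chosen by the measured difference between Lhx5 mutant and wild-type tissue in these same arrays, which was large for C1ql4, Lgi1 and Lrtm1, and their paralogues were added by name, so every difference between genotypes below is a description and carries no p.

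The C1ql proteins belong to the C1q and tumour necrosis factor superfamily. They are secreted at synapses, where they bind the adhesion receptor ADGRB3, and some of them bridge presynaptic neurexins to postsynaptic kainate receptors. The Lgi proteins are secreted leucine-rich repeat proteins that bind receptors of the ADAM family, and LGI1, which is mutated in a human familial epilepsy, tethers ADAM22 and ADAM23 across the synaptic cleft. The Lrtm proteins are leucine-rich repeat proteins of the cell membrane with less well known functions. In the embryo the floor plate is the ventral midline of the neural tube, and a source of Sonic hedgehog.

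Tissue came from the mammillary neuroepithelium of C57BL/6 embryos at E10.5, with 13 arrays from Lhx5 mutant embryos (KO) and 12 from wild-type embryos (WT), all labelled biological replicates. The KO embryos were homozygous for a floxed Lhx5 allele that had not met Cre and keeps all its exons. The study describes it as a hypomorph, with loxP sites in introns as the probable reason, and since the exons are kept the Lhx5 cluster does not check the labels; it averaged 7.92 ± 0.32 in KO and 7.97 ± 0.22 in WT (SD, n = 13 and 12). Values are log2 RMA values, in which 1 unit is a doubling of signal, and are compared only within a cluster, because probes differ in brightness. The means of KO replicates 1 to 10 and of KO replicates 11 to 13 were equal to within 1.33e-06 (median over probe sets), for a reason not given in the sources used here. Each KO minus WT difference therefore equals that of KO replicates 11 to 13 (n = 3) against WT (n = 12), and also that of KO replicates 1 to 10 against WT. Whether either KO set was adjusted to the other is not stated. The cautious reading is taken here. In it KO replicates 11 to 13 carry the level, and KO replicates 1 to 10 add nothing to its direction. Counts over all 13 KO arrays below describe spread and are not independent agreement among 13 embryos. Standard errors (SE) come from a limma fit with a term for KO replicates 1 to 10. In whole tissue, fewer cells of a type and less RNA per cell cannot be told apart.

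Of the 9 measured genes, 7 had a positive KO minus WT difference and 2 a negative one, with a median of 0.09 on the log2 scale, against a median of 0.01 over all 28940 clusters tested. With the term for KO replicates 1 to 10, 0 of the 9 genes passed an adjusted p of 0.05 in limma, where 7 clusters (0.0242% of all tested) did, 4 as higher (0.0138%) and 3 as lower in KO (0.0104%), and 2995 (10.3%) had an unadjusted p below 0.05. With genotype alone, which counts all 13 KO arrays alike, 4 of the 9 passed as higher in KO (C1ql4, Lgi1, Lgi2 and Lrtm1) and 0 as lower, where 16.7% of all clusters passed, 9.68% as higher and 6.99% as lower. That fit counts both KO sets as evidence on the level, although their equal means are not independent. On the reading taken here its SEs are too small (0.22 for C1ql4, in place of 0.36 with the term). Its calls are given only as a description. On KO replicates 11 to 13 and WT alone, 0 of the 9 passed, where 0.0207% of all clusters did. Since these genes were chosen with this contrast known, nothing is read from their count.

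Of the C1ql family, C1ql4 differed by the largest amount, and the differences of its 2 measured paralogues lay within 1 SE of 0. C1ql4 (chromosome 15, 99084086 to 99090674, GRCm38.p6) had values of 5.85, 5.72 and 6.19 on KO replicates 11, 12 and 13. On KO replicates 1 to 10 its values had a lowest of 5.21, a median of 5.84 and a highest of 6.90. On WT arrays they had a lowest of 3.75, a median of 4.46 and a highest of 6.09. All 13 KO arrays were above 11 of the 12 WT arrays, and the remaining one, WT replicate 7, lay among the KO arrays. The mean was 5.92 ± 0.56 in KO and 4.56 ± 0.63 in WT (SD), a difference of 1.36 ± 0.36 (SE, 95% interval 0.61 to 2.11) or 2.57-fold.

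C1ql1 (chromosome 11), which is known in the cerebellum as the signal of climbing fibres, ran between 5.39 and 6.83 in KO and between 5.27 and 6.73 in WT. These ranges overlapped almost wholly, and the difference was 0.06 ± 0.26 (95% interval -0.47 to 0.59). C1ql2 (chromosome 1), which is secreted by hippocampal mossy fibres, ran between 3.44 and 3.93 in KO and between 3.48 and 4.39 in WT, with a difference of -0.13 ± 0.14. Taken array by array as C1ql4 minus the mean of these paralogues, the contrast between KO and WT was 1.40 ± 0.28.

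Of the Lgi family, Lgi1 (chromosome 19, 38264687 to 38308939) differed most. It had values of 5.86, 5.87 and 6.30 on KO replicates 11, 12 and 13, and a lowest of 5.37, a median of 6.01 and a highest of 6.93 on KO replicates 1 to 10. On WT arrays the lowest was 4.38, the median 4.80 and the highest 6.38. The 2 WT arrays that reached the KO range were WT replicate 10 at 6.38 and WT replicate 8 at 5.41, and the other 10 lay below every KO array. The mean was 6.01 ± 0.40 in KO and 4.97 ± 0.54 in WT (SD), a difference of 1.04 ± 0.29 (95% interval 0.45 to 1.63) or 2.06-fold.

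Lgi2 (chromosome 5), a relative of Lgi1 that is mutated in an epilepsy of dogs, ran between 5.29 and 5.80 in KO and between 5.03 and 5.74 in WT. All 13 KO arrays lay above the WT median of 5.27, yet 6 of 12 WT arrays lay within the KO range, and the difference was 0.23 ± 0.11 (95% interval -0.0049 to 0.47). Lgi3 (chromosome 14) ran between 2.74 and 3.37 in KO and between 2.72 and 4.92 in WT, with a difference of -0.05 ± 0.27. Its highest WT value belonged to a single array, WT replicate 4, and the next was 3.50. Lgi4 (chromosome 7), whose protein acts on Schwann cells in peripheral nerve myelination, ran between 3.83 and 4.31 in KO and between 3.72 and 4.38 in WT, with a difference of 0.09 ± 0.11. Lgi1 minus the mean of its 3 paralogues gave a contrast of 0.95 ± 0.30 between KO and WT.

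Of the Lrtm pair, Lrtm1 (chromosome 14, 29018208 to 29033642) was the higher in KO. Its values were 8.11, 8.84 and 9.09 on KO replicates 11, 12 and 13, and 8.11, 8.68 and 9.45 (lowest, median and highest) on KO replicates 1 to 10. On WT arrays the lowest was 6.22, the median 7.75 and the highest 8.84. All 13 KO arrays were above the WT median, and 8 of 12 WT arrays lay below every KO array. Of KO replicates 11 to 13, which are taken to carry the level, 1 was above every WT array for Lrtm1, 1 for C1ql4 and 0 for Lgi1. The mean was 8.68 ± 0.44 in KO and 7.72 ± 0.75 in WT (SD), a difference of 0.96 ± 0.37 (95% interval 0.20 to 1.73) or 1.95-fold. Lrtm2 (chromosome 6) ran between 2.88 and 3.41 in KO and between 2.92 and 3.24 in WT, with a difference of 0.00 ± 0.08, and Lrtm1 minus Lrtm2 gave a contrast of 0.96 ± 0.37. WT means of Lrtm2, Lgi3, C1ql2 and Lgi4 (3.09, 3.13, 3.84 and 3.95) were below the median cluster level of 4.69. Those of C1ql1 and Lgi2 (6.04 and 5.31) were above it. A change may not show in clusters so dim, and the Lrtm contrast repeats the difference of Lrtm1.

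**Figure D1:**
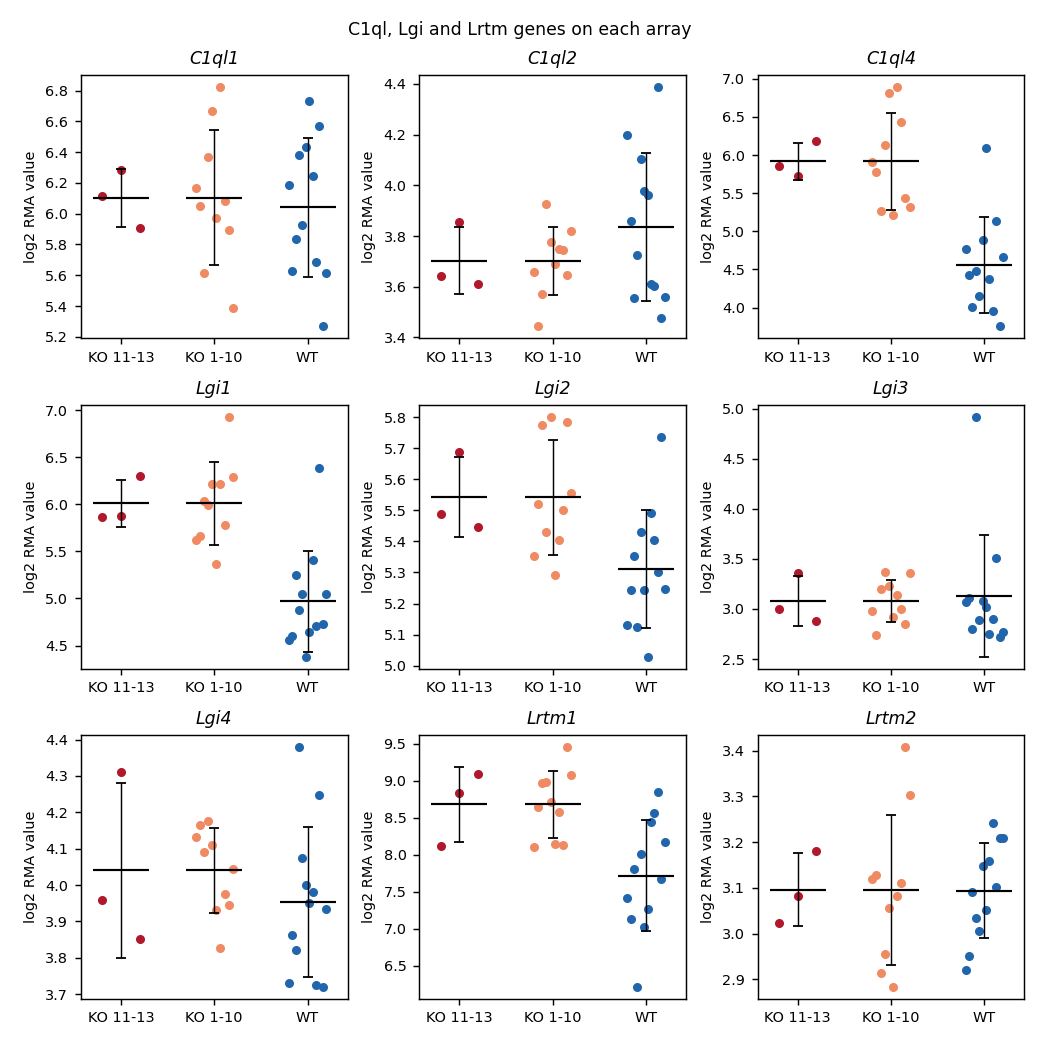
Log2 RMA values (y axis, a separate scale for each gene) of the 9 measured genes on each array, for KO replicates 11 to 13, KO replicates 1 to 10 and WT. Each point is an array, the horizontal line is the mean and the bar is the SD. C1ql4, Lgi1 and Lrtm1 had KO means of 5.92, 6.01 and 8.68 against WT means of 4.56, 4.97 and 7.72, while the other 6 genes overlapped more.

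Both Lrtm genes lie wholly inside genes for alpha-2-delta subunits of voltage-gated calcium channels, Lrtm1 within Cacna2d3 and Lrtm2 within Cacna2d4. The host genes have clusters of their own. Cacna2d3 averaged 5.84 ± 0.36 in KO and 5.77 ± 0.40 in WT (SD), a difference of 0.07 ± 0.23 that was far smaller in size than that of Lrtm1. Cacna2d4 averaged 3.32 ± 0.11 in KO and 3.29 ± 0.14 in WT. Of the 4 subunit genes, only Cacna2d2 passed with genotype alone, as lower in KO (difference -0.34 ± 0.14), where 6.99% of all clusters did. With the term 0 passed.

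The promoter windows of the 3 genes with the largest differences are shown to let their sequence be set beside those values. RefSeq windows of 300 bases (250 before and 50 after the start site, GRCm38.p6) were at hand for 7 of the 10 genes. Capitals mark TAAT on either strand (TAAT or ATTA), the core that homeodomain proteins such as LHX5 commonly bind. All are written 5′ to 3′ on the strand of the gene, at chr15:99087679-99087978 (minus strand) for C1ql4, chr19:38264437-38264736 (plus strand) for Lgi1 and chr14:29017958-29018257 (plus strand) for Lrtm1.
C1ql4: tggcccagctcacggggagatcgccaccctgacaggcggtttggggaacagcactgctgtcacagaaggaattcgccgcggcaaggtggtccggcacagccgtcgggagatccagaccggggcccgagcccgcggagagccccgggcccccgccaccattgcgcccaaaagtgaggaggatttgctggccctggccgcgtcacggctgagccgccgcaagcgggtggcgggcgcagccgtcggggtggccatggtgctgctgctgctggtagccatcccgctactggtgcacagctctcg
Lgi1: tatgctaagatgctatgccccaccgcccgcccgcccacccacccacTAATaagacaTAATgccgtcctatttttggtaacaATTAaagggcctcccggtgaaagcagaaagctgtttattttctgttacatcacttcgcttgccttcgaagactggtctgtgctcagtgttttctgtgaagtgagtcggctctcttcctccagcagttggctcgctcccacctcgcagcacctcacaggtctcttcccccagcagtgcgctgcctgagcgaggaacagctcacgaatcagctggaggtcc
Lrtm1: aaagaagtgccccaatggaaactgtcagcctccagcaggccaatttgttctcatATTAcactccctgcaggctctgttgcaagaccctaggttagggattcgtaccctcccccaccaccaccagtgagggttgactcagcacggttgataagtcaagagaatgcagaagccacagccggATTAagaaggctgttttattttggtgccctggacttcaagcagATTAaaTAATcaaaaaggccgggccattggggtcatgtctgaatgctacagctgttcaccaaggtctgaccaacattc
The C1ql4 window held no TAAT on either strand, the Lgi1 window held 2 copies of TAAT and 1 of ATTA, and the Lrtm1 window held 1 copy of TAAT and 3 of ATTA. Some copy was present for 3 of the 7 genes with a window (Lgi1, Lgi2 and Lrtm1) and in 58.0% of all 32851 windows. The longer motif TAATTA, which reads the same on both strands, was present for 0 of the 7 genes and in 5.29% of all windows. The C1ql4 window lies within the annotated span of the gene. A match is a description of the letters only.

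Genes listed as partners of the C1ql and Lgi proteins had RNA differences mostly of the opposite sign to those of C1ql4 and Lgi1. Of 12 listed partners, 10 had clusters of their own. Of these, 9 had a negative difference, where 13957 of all 28940 clusters did, and the median was -0.25. The 10 measured neuron genes were all negative too, with a median of -0.18. With genotype alone 4 of the 10 partners passed as lower in KO and 0 as higher, where 6.99% and 9.68% of all clusters did. With the term 0 passed. Adgrb3, the C1ql receptor, averaged 6.14 ± 0.29 in KO and 6.68 ± 0.29 in WT (SD), a difference of -0.54 ± 0.18, with 0 of 13 KO arrays above the WT median. Nrxn3, the presynaptic neurexin, differed by -0.82 ± 0.38, and Grik2, a kainate receptor subunit, by -0.56 ± 0.24.

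Of the Lgi receptors, Adam11 averaged 5.85 ± 0.26 in KO and 6.31 ± 0.29 in WT (SD), a difference of -0.46 ± 0.17. Adam22 and Adam23 differed by -0.20 ± 0.12 and -0.19 ± 0.16 and did not pass. The same held for Nrxn2 (-0.30 ± 0.19), the kainate receptor subunit gene Grik4 (-0.15 ± 0.10), Dlg4, which encodes the scaffold PSD-95 (-0.07 ± 0.12), and the potassium channel gene Kcna1 (0.00 ± 0.41).

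Differences between genotypes were set beside markers of the cell types and regions that the dissection could hold. Floor plate markers were higher in KO with genotype alone in 6 of 10 measured genes and lower in 0, where 9.68% and 6.99% of all clusters were. With the term 0 floor plate markers passed. All 10 differences were positive, with a median of 0.37, led by Corin (0.98 ± 0.33) and Ferd3l (0.92 ± 0.32). The study itself lists Corin, Ferd3l and Wnt5a as higher in KO on these arrays, and likewise C1ql4, Lgi1 and Lrtm1. For Lrtm1 and Wnt5a it also reports a rise by quantitative PCR. By in situ hybridization in older embryos it describes ectopic expression of both in the mutant mammillary body. The floor plate list was chosen with earlier results of these data known, so its rise is only a description. The floor plate score, the mean of the centred values of the 10 measured genes, ran between -0.38 and 0.60 on KO arrays and between -0.66 and 0.62 on WT arrays. The highest of all arrays was WT replicate 10. Of the 10 neuron genes measured, 0 passed in either fit, where 16.7% of all clusters passed with genotype alone. All 10 neuron differences were negative, with a median of -0.18. The neuron score ran between -0.88 and 0.62 on KO arrays and between -0.90 and 0.78 on WT arrays. Median differences of the other lists were -0.82 for the rostral hypothalamus, -0.18 for neural progenitors, -0.16 for mammillary genes and 0.04 for muscle. They were 0.11 for endothelium, 0.15 for mesenchyme, 0.24 for surface ectoderm and 0.36 for erythroid genes. The rostral hypothalamus list had the median of largest size. All 8 of its genes had a negative difference, and 7 passed as lower with genotype alone, where 6.99% of all clusters did. With the term 0 of the 8 passed. Only the floor plate and neuron scores were entered as covariates, and the part of the other lists in the results was not tested.

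The scores were entered as covariates in a fit chosen after the data were seen. The floor plate score holds genes that the study lists as higher in KO, so smaller differences with it are partly built in. With the floor plate score the difference of Lgi1 was 0.38 ± 0.15 in place of 1.04 ± 0.29, and that of Lrtm1 was 0.25 ± 0.29 in place of 0.96 ± 0.37. The difference of C1ql4 was 1.15 ± 0.41 in place of 1.36 ± 0.36. With the neuron score the differences were 1.05 ± 0.30 for Lgi1, 0.91 ± 0.38 for Lrtm1 and 1.57 ± 0.23 for C1ql4. The contrasts with paralogues were 0.36 ± 0.20 for Lgi1, 0.34 ± 0.31 for Lrtm1 and 1.29 ± 0.31 for C1ql4 with the floor plate score.

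**Figure D2:**
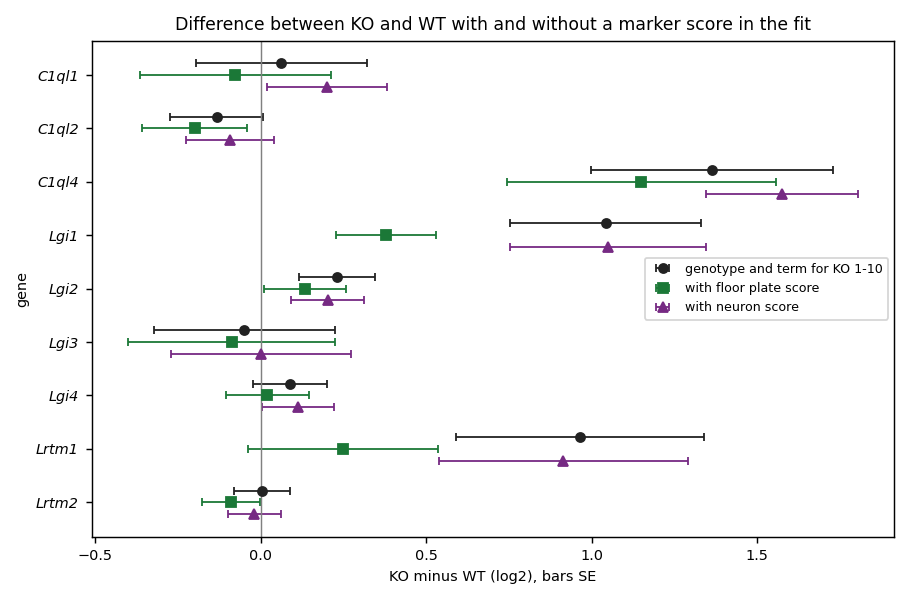
KO minus WT difference on the log2 scale (x axis) for each of the 9 genes (y axis), from the fit with genotype and the term for KO replicates 1 to 10 and from the same fit with the floor plate or the neuron score added. Points are estimates and bars the SE. The Lgi1 and Lrtm1 points lie at 1.04 and 0.96 without a score and at 0.38 and 0.25 with the floor plate score, and the C1ql4 points lie between 1.15 and 1.57.

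Whether the genes vary together with a tissue component within a genotype is a question that the difference between genotypes does not enter. Members and lists were nonetheless chosen with earlier results of these data known. The p-values of the correlations below are therefore a description and not an independent test. Several of the genes varied widely among arrays of 1 genotype. In WT the SD was 0.75 for Lrtm1, 0.63 for C1ql4, 0.54 for Lgi1 and 0.45 for C1ql1, above the SD of 99.5%, 99.2%, 98.7% and 97.9% of all clusters, against a median SD of 0.14. On KO replicates 1 to 10 these SDs were 0.45, 0.63, 0.44 and 0.44, each above those of at least 97.4% of clusters. Lgi3 had a WT SD of 0.60, above that of 99.1% of clusters, with 1 outlying array (WT replicate 4), and 0.21 on KO replicates 1 to 10. C1ql2 had SDs of 0.29 in WT, above that of 92.6% of clusters, and 0.13 on KO replicates 1 to 10. Lgi2, Lgi4 and Lrtm2 had WT SDs of 0.19, 0.21 and 0.10. Each gene was correlated across arrays with 10 list scores, in KO replicates 1 to 10 and in WT apart. Of these 180 correlations 4 passed an adjusted p of 0.05 by permutation, all in WT, and 23 had an unadjusted p below 0.05. By Spearman's rank correlation 5 passed.

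Lgi1 followed the floor plate score past the threshold in WT, and in KO replicates 1 to 10 its r had the same sign but missed the adjusted threshold. In KO replicates 1 to 10 its Pearson's r was 0.84 (permutation p = 0.0037, adjusted p = 0.132; Spearman's rho 0.78), and 0.70 without the 2 arrays farthest from the median score. In WT it was 0.92 (permutation p = 2.0e-04, adjusted p = 0.018; Spearman's rho 0.84, permutation p = 0.0011), and 0.78 without the 2 farthest arrays. The arrays left out were KO replicates 6 and 9 and WT replicates 2 and 10. In WT 0.0207% of all clusters had as high an r. The WT value leaned on WT replicate 10: without this array r was 0.77 and the adjusted p 0.169, and the adjusted p ran between 0.0054 and 0.217 over 18 alternatives.

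Single floor plate genes were compared next. These tests took only C1ql4, Lgi1 and Lrtm1, chosen for their differences, with floor plate and neuron genes. An adjustment within this chosen set is laxer than that for the scores. In KO replicates 1 to 10 Lgi1 with Wnt5a passed at permutation p = 0.0094 (adjusted p = 0.0404). With the floor plate score Lgi1 did not pass at permutation p = 0.0037 (adjusted p = 0.132). Single genes also make up the scores, so counts passing here and below are not added support. Over 120 correlations of C1ql4, Lgi1 and Lrtm1 with single markers, Lgi1 passed with 5 of 10 floor plate genes in KO replicates 1 to 10 and with 9 of 10 in WT. In KO replicates 1 to 10 the highest r was with Slit2, a midline repellent of axons (0.87, permutation test, adjusted p = 0.0155), and r with Shh was 0.82. In WT the highest r was with Ferd3l, a basic helix-loop-helix gene of the floor plate (0.92, permutation test, adjusted p = 0.0089), and r with Shh was 0.57, which did not pass. With the 10 neuron genes Lgi1 passed in 0 cases in either set, and its r with the neuron score was 0.02 in KO replicates 1 to 10 and -0.001 in WT.

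Lrtm1 gave r = 0.74 with the floor plate score in KO replicates 1 to 10 (permutation p = 0.012, adjusted p = 0.216; Spearman's rho 0.75, permutation p = 0.0177). In WT r was also 0.74 (permutation p = 0.0059, adjusted p = 0.159), and Spearman's rho was 0.92 (permutation p = 6.0e-05, adjusted p = 0.0054). Without the 2 farthest arrays r was 0.56 in KO replicates 1 to 10 and 0.69 in WT. WT replicate 4, with the lowest Lrtm1 value of all arrays (6.22), lay off the line, and without it r in WT was 0.87 (permutation test, adjusted p = 0.0054, between 0.0054 and 0.358 over 18 alternatives). With the neural progenitor score Lrtm1 had an r of like size and opposite sign in WT (-0.73, permutation p = 0.0079, adjusted p = 0.159, and -0.76 without the 2 farthest arrays), and -0.44 in KO replicates 1 to 10, where it was 0.46 without the 2 farthest arrays. Of single floor plate genes, Lrtm1 passed with Ferd3l and Wnt5a in KO replicates 1 to 10 and with Foxa1, Ferd3l and Wnt5a in WT. Foxa1 encodes a forkhead factor of the ventral midline, and Wnt5a a secreted Wnt ligand.

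For C1ql4 no relation to the floor plate score passed the threshold. Its r with the floor plate score was 0.40 in KO replicates 1 to 10 and 0.10 in WT (permutation test, adjusted p = 0.662 and 0.898), and it passed with 0 of 10 floor plate genes in either set. It varied with neuron genes, past the adjusted threshold in WT. With the neuron score r was 0.71 in KO replicates 1 to 10 (permutation p = 0.0234, adjusted p = 0.264; Spearman's rho 0.62, permutation p = 0.0608) and 0.87 in WT (permutation p = 6.0e-04, adjusted p = 0.036; Spearman's rho 0.97, permutation p = 2.0e-05). Without the 2 farthest arrays r was 0.55 in KO replicates 1 to 10 and 0.89 in WT.

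The neuron score is widely shared, and 1.43% of all clusters had as high an r with it in WT. Leaving out WT replicate 3, 9 or 10 brought the adjusted p for C1ql4 in WT to 0.0760, 0.0940 or 0.0642, with r between 0.85 and 0.90 whichever WT array was left out, and over 17 alternatives the adjusted p ran between 0.0036 and 0.0940. Leaving out KO replicate 3, which had a low C1ql4 value (5.27) for its neuron score (0.29), gave r = 0.90 in KO replicates 1 to 10 (permutation test, adjusted p = 0.0417, between 0.0417 and 0.511 over 15 alternatives). Of single neuron genes, C1ql4 passed with 4 of 10 in KO replicates 1 to 10 (Gap43, Dcx, Elavl4 and Nhlh2) and with 7 of 10 in WT. The highest r was with the growth cone gene Gap43 in KO replicates 1 to 10 (0.90) and with the microtubule regulator gene Stmn2 in WT (also 0.90).

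**Figure D3:**
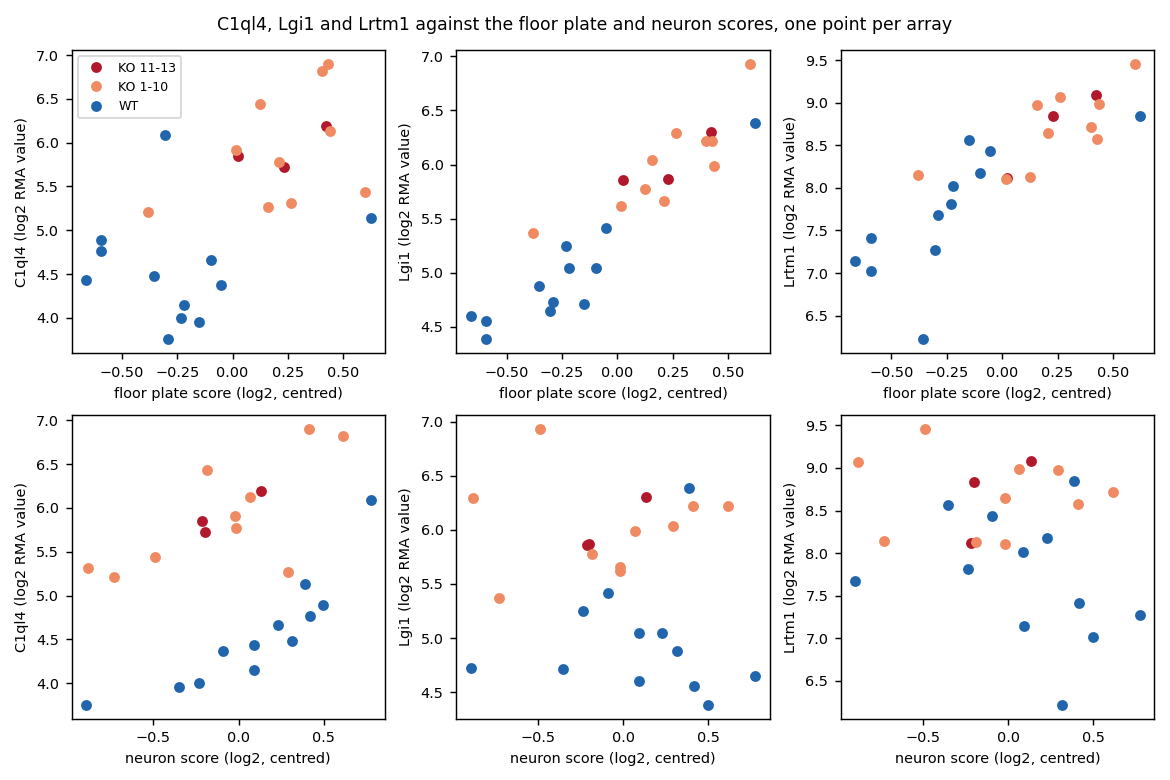
Log2 RMA values of C1ql4, Lgi1 and Lrtm1 (y axes) against the floor plate score (upper row) and the neuron score (lower row) on the x axes, in log2 units centred over all arrays. Each point is an array, coloured by set (KO replicates 11 to 13, KO replicates 1 to 10 and WT). With the floor plate score Lgi1 had r of 0.84 in KO replicates 1 to 10 and 0.92 in WT, and Lrtm1 0.74 in both. With the neuron score C1ql4 had r of 0.71 in KO replicates 1 to 10 and 0.87 in WT. Of these, Lgi1 and C1ql4 in WT passed an adjusted p of 0.05 and the others did not.

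Of the paralogues, C1ql1 also passed with the neuron score in WT, with r = 0.70 in KO replicates 1 to 10 (permutation p = 0.0229, adjusted p = 0.264) and 0.81 in WT (permutation p = 0.001, adjusted p = 0.0459). Without the 2 farthest arrays these were 0.57 and 0.61. By ranks C1ql1 did not pass in WT (Spearman's rho 0.74, permutation test, adjusted p = 0.149). Lgi2 ran against the neuron score in WT, with r = -0.90 (permutation p = 1.7e-04, adjusted p = 0.018; Spearman's rho -0.85, permutation p = 7.8e-04; -0.70 without the 2 farthest arrays). In KO replicates 1 to 10 its r was 0.28 (permutation p = 0.433), and whether the sets differ in this was not tested. The other 4 measured paralogues, C1ql2, Lgi3, Lgi4 and Lrtm2, passed with 0 of the 10 lists in either set.

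**Figure D4:**
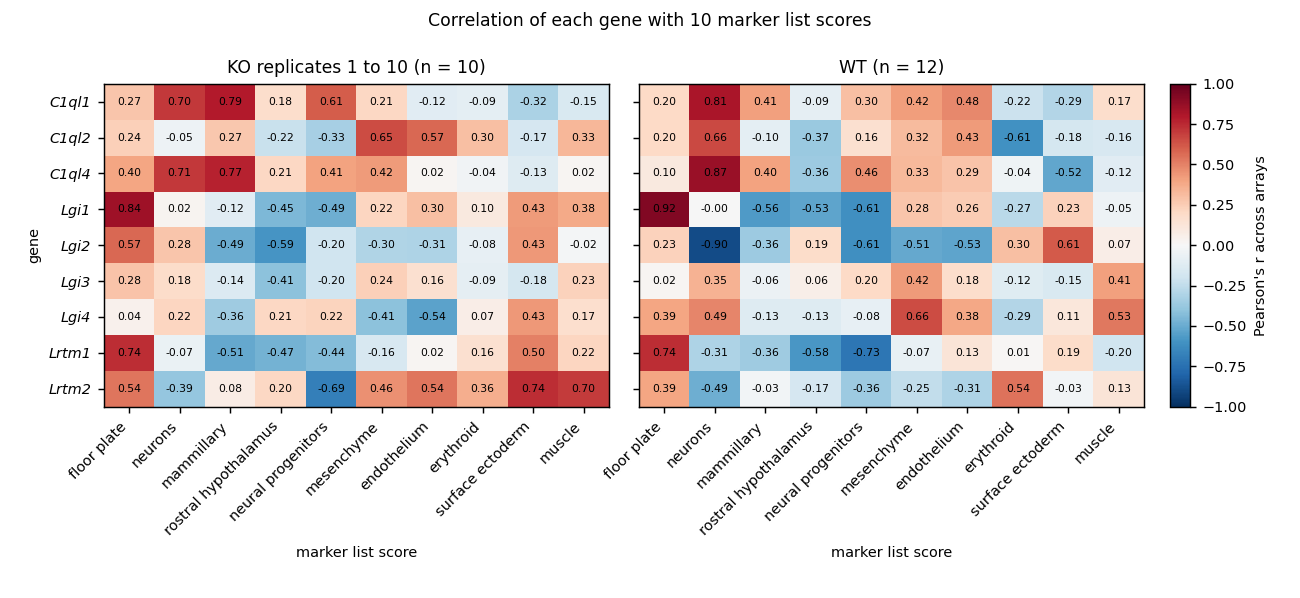
Pearson's r across arrays between each of the 9 genes (rows) and 10 marker list scores (columns), in KO replicates 1 to 10 (left, n = 10) and WT (right, n = 12), with red above 0 and blue below. The Lgi1 and Lrtm1 cells under the floor plate read 0.84 and 0.74 in KO replicates 1 to 10 and 0.92 and 0.74 in WT, and the C1ql4 cells under neurons read 0.71 and 0.87.

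Among themselves, 3 of 72 pairings of the 9 genes passed. C1ql1 and C1ql4 varied together in KO replicates 1 to 10 (r = 0.88, permutation test, adjusted p = 0.0338) and in WT (r = 0.79, permutation test, adjusted p = 0.0475), and of this pair C1ql4 differed by 1.36 between genotypes and C1ql1 by 0.06. Lgi1 and Lrtm1 varied together in KO replicates 1 to 10 (r = 0.84, permutation test, adjusted p = 0.0499). In WT this pair did not pass (r = 0.64, permutation test, adjusted p = 0.196). Without the 2 farthest arrays r for C1ql1 and C1ql4 was 0.85 in KO replicates 1 to 10 and 0.64 in WT. For Lgi1 and Lrtm1 it was 0.66 in KO replicates 1 to 10 and 0.35 in WT.

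The genes whose pattern was most like each of the 3, over 25 arrays after removal of the set means and among 10666 genes at or above the median level, are given as a description. For C1ql4 these were Sema6c, Cbfa2t3, Snap91, Ndst3 and Rusc1, with r between 0.91 and 0.92. Sema6c encodes a transmembrane semaphorin and Snap91 a clathrin adaptor of synapses. For Lgi1 they were Dipk2a, Bmp7, Slit2, Ferd3l and Pknox2, with r between 0.82 and 0.86, of which Slit2 and Ferd3l are on the floor plate list and Bmp7 encodes a bone morphogenetic protein. For Lrtm1 they were Folr1, Wnt5b, Enpp3, Serinc5 and Car4, with r between 0.85 and 0.88, where Folr1 encodes a folate receptor and Wnt5b a Wnt ligand.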

How the data were processed

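RNA of 25 samples was measured on the Mouse Gene 1.1 ST array of Affymetrix. The deposited values are log2 signals from the RMA method (robust multiarray averaging), and the submitters' processing notes list Affymetrix Expression Console 1.0, affy and R 2.7.0. Across 11 deposited columns, 14 cells lay above 14 and were set missing, none in the genes described (because of such a cell, 10 of these deposited columns exceed a log2 range and were entered as score, and all other cells in them were used as log2 values). No depth applies, and the number of arrays limits the precision. Of 35556 probe sets, the 6616 with identifiers below the lowest annotated one were left out, and 5841 clusters without a symbol were kept.

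A model of genotype plus a term for KO replicates 1 to 10 was run on 28940 clusters with limma 3.58.1 under R 4.3.3, two-sided, with Benjamini-Hochberg adjustment. Genes were matched by single symbol, taking the brightest cluster. Correlations used 100000 permutations in Python 3.11.15 (numpy 2.4.6), adjusted over 180 tests, and over 120 and 72 for single markers and pairs. Scripts were tested on simulated data. Named genes were the members, their listed partners, hosts and markers, and the 5 most alike genes. Members and lists were chosen with earlier results of these data known. Promoter sequences are from RefSeq (GRCm38.p6).

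Alternatives were genotype alone, KO replicates 11 to 13 and WT alone, repeated quantile normalization, median centring, array weights, limma-trend, leaving out dim clusters, a replicate block, other scores and each array left out.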

Additional observations from a re-analysis of the deposited data

How the results depend on the processing

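The number of clusters called with the term was 7 (4 higher and 3 lower in KO). It was 4825 with genotype alone, 1 after repeated quantile normalization (0 higher), 12 with arrays centred on their medians (5 higher and 7 lower), 30 with array weights (22 higher and 8 lower), 4 without clusters below the median level (1 higher and 3 lower) and 0 with the floor plate score as a covariate (2168 at an unadjusted p below 0.05 in limma). Leaving out 1 array gave between 0 and 26 calls: 0 without KO replicate 13 (1942 unadjusted), 17 without KO 11, 19 without KO 3, KO 8 or KO 12, 11 without KO 7, 4 without WT 1 and 26 without WT 10. It was 6 with KO replicates 11 to 13 and WT alone, 9 with limma-trend and 10 with the neuron score.

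The replicate numbers did not pair the samples, since deviations of KO and WT arrays of the same number correlated between -0.33 and 0.43, above 0.1 for 4 of 12 numbers, and 0 KO arrays matched their own number best. With the replicate block 0 clusters were called (2354 unadjusted in limma), and the differences were 1.58 for C1ql4, 0.98 for Lgi1 and 0.55 for Lrtm1. Paralogues moved too: C1ql1 differed by 0.76 ± 0.31 in place of 0.06 ± 0.26, and C1ql2 by 0.23 ± 0.17 in place of -0.13 ± 0.14.

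The differences kept their sign for C1ql4, Lgi1 and Lrtm1 in all 33 alternatives. They ran between 1.23 and 1.502, 0.90 and 1.17, and 0.76 and 1.25 with 1 array left out, and the contrasts with paralogues between 1.19 and 1.58, 0.73 and 1.14, and 0.80 and 1.21. Only the floor plate score moved any of them by more than 1 SD, to 0.38 for Lgi1 and 0.25 for Lrtm1 (contrasts 0.36 and 0.34). Of the paralogues, C1ql1, C1ql2, Lgi3, Lgi4 and Lrtm2 each moved by more than 1 SD in 1 alternative. Averaging all clusters of a gene was not run, because each of the 9 genes has a single cluster of its own.

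Among correlations, without the 2 arrays farthest in floor plate score r in WT was 0.78 for Lgi1 with the floor plate (adjusted p = 0.217, permutation test) and 0.86 for C1ql4 with neurons (adjusted p = 0.0787, permutation test), both past the threshold before. With the median of the centred genes as score, r for Lgi1 with the floor plate in KO replicates 1 to 10 was 0.89 (adjusted p = 0.0354, permutation test, between 0.0354 and 0.454 over 16 alternatives), and by ranks Lrtm1 gave 0.92 in WT. With 1 array left out, r with the floor plate ran between 0.82 and 0.88 in KO replicates 1 to 10 and between 0.77 and 0.95 in WT for Lgi1, and between 0.64 and 0.79 and between 0.68 and 0.87 for Lrtm1. For C1ql4 with neurons it ran between 0.61 and 0.90 in KO replicates 1 to 10 and between 0.85 and 0.90 in WT. Correlations near 0 changed sign: C1ql4 with the floor plate in WT was -0.15 by ranks, -0.31 without the 2 farthest arrays and between -0.24 and 0.22 with 1 array left out. Lgi1 with neurons was 0.049 in WT with the median score and between -0.31 and 0.10 with 1 array left out (between -0.27 and 0.36 in KO replicates 1 to 10), and Lrtm1 with neurons ran between -0.32 and 0.13 in KO replicates 1 to 10. Of the 180 correlations, between 1 and 6 passed with 1 array left out and 0 without the 2 farthest arrays (4 otherwise). The covariates were chosen after the data were seen. All differences are limited by the 3 KO arrays that are taken to carry them.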

Other observations

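The cerebellins, secreted relatives of the C1ql proteins that also organise synapses, showed differences of mixed sign. Of 4 measured, Cbln3 passed with genotype alone as higher in KO, where 9.68% of all clusters did, and 0 passed with the term. Cbln3 averaged 3.64 ± 0.12 in KO and 3.46 ± 0.15 in WT (SD), a difference of 0.19 ± 0.09 (SE). Cbln1, a partner of neurexins at cerebellar synapses, averaged 5.23 ± 0.41 in KO and 5.61 ± 0.44 in WT (SD), a difference of -0.38 ± 0.26 (SE) that did not pass. Cbln2 and Cbln4 differed by -0.03 ± 0.24 and 0.13 ± 0.13 (SE).

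Within KO replicates 1 to 10, C1ql1 and C1ql4 had r of 0.79 and 0.77 with the score of mammillary genes (permutation p = 0.0075 and 0.0067, adjusted p = 0.159 for both), against 0.41 and 0.40 in WT. By ranks C1ql1 passed (Spearman's rho 0.88, permutation test, adjusted p = 0.0497). The difference between sets was not tested.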
